A study of Mus musculus with 32 samples.

Results

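The bombesin-type peptides and their receptors were examined in 32 primary mouse melanomas, to ask which ligand was present for the gastrin-releasing peptide receptor and in which tumours. The family was taken as 5 genes by name: the receptors Grpr, Nmbr and Brs3, and the peptide genes Grp and Nmb. All 5 were found among the 50600 genes of the count and TPM tables (TPM divides the reads of a gene by its length and by the sum over all genes, so it can be compared between genes). All mice carried Tyr::NrasQ61K, an oncogene driven in melanocytes by the tyrosinase promoter, with Cdkn2a-/+ and the floxed allele Cdh1F/F of the E-cadherin gene. Ecad mice had no further transgene (°/°), and ΔEcad mice carried Tyr::CreA/° according to the methods of the study, a Cre recombinase that removes the floxed sequence in the melanocyte lineage. For ΔEcad the sample labels give Tyr::NRAS/° in that place, so the Cre is known from the methods and not from the labels. Each genotype was represented by 8 male and 8 female tumours, and the labels gave no ages. These are bulk tumours, in which fewer cells of a type and less RNA per cell cannot be told apart.

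Bombesin-type peptides are small, amidated signalling peptides cut from longer precursors. Grp encodes gastrin-releasing peptide and Nmb encodes neuromedin B. Grpr encodes the receptor that prefers gastrin-releasing peptide, Nmbr the receptor that prefers neuromedin B, and each receptor also binds the other peptide with lower affinity. Brs3 encodes bombesin receptor subtype 3, an orphan receptor that binds neither natural peptide well and is best known from the hypothalamus. The receptors couple to Gq proteins and phospholipase C, which release calcium and activate protein kinase C. Gastrin-releasing peptide is made by enteric and spinal neurons and by pulmonary neuroendocrine cells.

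Before the values, the stretch just upstream of the RefSeq start is given for Grpr, the receptor gene that passed the count filter, and for the peptide gene read in every tumour, Nmb. Each is 250 bases long, on the minus strand of GRCm38.p6, written 5′ to 3′ with CG dinucleotides in capitals. The Grpr stretch is chrX:163549737-163549986 and overlaps no annotated gene. The Nmb stretch is chr7:80905063-80905312, lies wholly inside the gene Sec11a and has its last 14 bases inside the annotated Nmb gene.
Grpr: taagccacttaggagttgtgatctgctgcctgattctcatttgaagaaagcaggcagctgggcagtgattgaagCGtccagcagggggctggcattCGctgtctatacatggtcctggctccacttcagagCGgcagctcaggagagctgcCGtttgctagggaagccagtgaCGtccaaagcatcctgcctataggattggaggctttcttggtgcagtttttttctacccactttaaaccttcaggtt
Nmb: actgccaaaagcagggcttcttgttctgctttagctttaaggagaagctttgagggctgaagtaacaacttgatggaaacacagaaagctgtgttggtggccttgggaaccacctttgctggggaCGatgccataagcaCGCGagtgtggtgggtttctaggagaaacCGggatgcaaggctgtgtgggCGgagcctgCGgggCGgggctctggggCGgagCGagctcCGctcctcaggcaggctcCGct
The Grpr stretch held 5 CG and the Nmb stretch 11, against a median of 6 over 32841 such stretches of RefSeq promoters, so neither stood at an end of that distribution (49.6% of stretches had no more CG than Grpr and 35.6% had at least as many as Nmb). The palindromic oestrogen response element, its shorter core AGGTCA, the TCF/LEF motifs CTTTGAA and CTTTGAT, the TEAD motif GGAATG, and the E-boxes CACGTG and CATGTG were searched on both strands and were absent from both stretches. These letters were found in 0.0639%, 14%, 4.45%, 3.21%, 12.6%, 6.02% and 12.3% of all stretches. The cyclic AMP response element TGACGTCA, present in 1.55% of stretches, was also absent from both, while its shorter core TGACG, a part of it found in 17.8%, occurred 1 time in Grpr and was absent from Nmb. A match describes letters and not a binding site, and an absent match speaks only of this window.

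Facts of the series that touch these genes were as follows. Total counts ranged from 24036333 to 63923086 per tumour. The floor was set at 3 counts per tumour, which correspond to 0.0561 to 0.153 TPM for Grpr, 0.134 to 0.364 TPM for Grp, and 0.179 to 0.486 TPM for Nmb. Such floors cover counting error only. The targeted gene Cdh1 ranged from 2.16 to 151.2 TPM in Ecad females and from 0.17 to 143.2 TPM in ΔEcad females, so its RNA in bulk did not separate the female genotypes. It was at 0.17 to 4.51 TPM in ΔEcad females 3, 4 and 5, whose 7 keratinocyte markers summed to 1.67 to 7.33 TPM. In the other ΔEcad females it was at least 45.2 TPM, with sums of at least 5536 TPM. Ecad females 1 and 6, with sums of 3.77 and 0.2 TPM, had Cdh1 at 151.2 and 2.16 TPM. The part of keratinocytes in the Cdh1 level was not tested. In males it ranged from 25 to 281.9 TPM in Ecad and from 0.79 to 65.2 TPM in ΔEcad tumours. The library labelled ΔEcad male 2 had 0 counts over 4 Y-linked genes and read Xist, an RNA read in females, at 6.41 TPM. In the other libraries labelled male Xist was at most 0.2 TPM, and in those labelled female at least 8.55 TPM. Whether the label of ΔEcad male 2 is right was not tested. The library labelled ΔEcad female 1 had 92 Y-linked counts. ΔEcad male 7 had a summed level of 7 melanocytic markers of 31.5 TPM where the other 31 tumours had at least 5773 TPM. The results of Grpr were also computed without these 3 libraries and are given beside the main values. The tumour ΔEcad female 3 stood apart by its markers of other cells. It ranked first of 32 for the summed level of 6 smooth muscle markers, at 4092 TPM with 884.1 TPM next, and for that of 5 fibroblast markers, at 6348 TPM with 3356 TPM next. It ranked last for endothelial (0.77 TPM), macrophage (11.7 TPM), T cell (0 TPM) and red blood cell markers (0 TPM, where the other 31 tumours had at least 75.4 TPM). The fits were therefore repeated without it, alone and together with the 3 libraries.

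Grpr (ENSMUSG00000031364, chromosome X, 163513904 to 163549677, minus strand, GRCm38) was low in Ecad tumours of both sexes and was read in every ΔEcad female. Among the ΔEcad females it stood at 262.9 TPM in tumour 3, 206.1 in tumour 8, 117.4 in tumour 4, 73.1 in tumour 1, 31.5 in tumour 5, 11.9 in tumour 6, 4.66 in tumour 7 and 3.52 in tumour 2. The highest was 74.7 times the lowest, and these levels placed Grpr 604th from the top of the 21174 genes read in tumour 3 and 12872nd of the 24402 read in tumour 2. Grpr counts there ran from 125 to 9444, so that the order within the group did not rest on few reads.

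In the ΔEcad males Grpr was read at 5.14 TPM in tumour 7, 1.16 in tumour 4 and 0.98 in tumour 6, at 0.13 to 0.2 TPM in tumours 2, 3 and 5, and at 0 in tumours 1 and 8. The highest male thus lay above the ΔEcad females 2 and 7, and the other 7 lay below all 8 females. Sex is as labelled here, and the library labelled ΔEcad male 2, with Xist RNA and no Y-linked counts, had Grpr at 0.18 TPM. In Ecad tumours the highest level was 0.34 TPM, with 0 to 10 counts in the 8 females (more than 3 in 2 of them) and 0 to 5 counts in the 8 males (more than 3 in 3 of them). By the labels, the lowest ΔEcad female was 10.4 times the highest of the 16 Ecad tumours, and these groups did not overlap. The 0.18 TPM of ΔEcad male 2 lies under that highest Ecad level, so the separation rests on its label as male. In all, ΔEcad females held 98.9% of the 24462 Grpr counts of the series.

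Nmbr, the receptor that prefers neuromedin B (ENSMUSG00000019865, chromosome 10, 14705591 to 14770850, plus strand), was at the limit of detection in all groups. It had 39 counts over the 32 tumours, 0 in 12 of them and more than 3 in 3, with a highest level of 0.17 TPM in ΔEcad male 4, at 5 counts. Median levels in males were 0.01 TPM for Ecad and 0 TPM for ΔEcad, median levels in females 0.045 and 0.035 TPM, and all ranges overlapped. Of its exonic bases, 504 overlap B230364G03Rik on the opposite strand, and the counting is not stated to use strand, so even these reads are uncertain. No difference in Nmbr between groups was detectable at this depth.

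Brs3 (ENSMUSG00000031130, chromosome X, 57043074 to 57048758, plus strand) was read in 1 tumour of 32. Ecad female 4 held 1059 counts, 43.2 TPM, and the other 31 tumours, including the other 7 Ecad females, held 0. Grpr in that tumour was at 0.22 TPM and Nmbr at 0.04 TPM, so a high level of 1 receptor gene of the family did not come with the others. A group mean for Brs3 describes only this tumour, and no group is called high for it.

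The level of Brs3 in Ecad female 4 was compared with the genes around it. Of 18 annotated genes within 500 kb, 7 passed the count filter, and in Ecad female 4 all of these 7 lay within the range of the other 31 tumours. Htatsf1, the nearest of them with its start 10.5 kb from that of Brs3, stood at 38.9 TPM (median of the other tumours 30.2), and Map7d3, on the other side at -220.7 kb, at 0.08 TPM (median of the other tumours 0.52). None of the 18 neighbours, filtered or not, had its highest level in Ecad female 4.

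Grp, the gene of the preferred ligand of Grpr (ENSMUSG00000024517, chromosome 18, 65872820 to 65886596, plus strand), was barely read in any tumour. It had 60 counts in the series and 0 in 20 tumours. More than 3 counts were found in 5 tumours: ΔEcad female 4 with 20 (1.34 TPM), ΔEcad female 2 with 14 (0.94 TPM), ΔEcad female 7 with 7 (0.52 TPM), ΔEcad female 8 with 6 (0.47 TPM) and Ecad female 5 with 4 (0.33 TPM). The other 4 ΔEcad females, among them the tumour with the most Grpr, had 0 counts. The ΔEcad females held 47 of the 60 counts and the other 24 tumours 13.

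The count filter removed Grp, so it was not part of the main test. With all 33460 genes that had any count in the fit, the log2 fold change of Grp was 2.73 in females (ΔEcad against Ecad, edgeR adjusted p = 0.176) and 2.88 between ΔEcad females and males (edgeR adjusted p = 0.481), and neither passed. The 3 members removed by the filter, Grp, Nmbr and Brs3, passed in no comparison of that fit.

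Nmb, the gene of neuromedin B (ENSMUSG00000025723, chromosome 7, 80902227 to 80905076, minus strand), was read in all 32 tumours, at 16 to 1041 counts. In Ecad males the lowest level was 9.38 TPM, the median 12.7 and the highest 25.9 (tumour 3). In Ecad females it ran from 5.34 to 16.2 TPM with a median of 9.73. In ΔEcad females it ran from 1.42 to 22.6 TPM with a median of 11.1, the lowest in tumour 3, where Grpr was highest. In ΔEcad males it ran from 8.21 to 103.5 TPM with a median of 15.1. The highest levels of the series, 103.5 and 43.0 TPM, belonged to ΔEcad males 8 and 1, the 2 ΔEcad males with 0 counts of Grpr. Ecad tumours with 0 counts of Grpr had Nmb at 5.34 to 25.9 TPM. The ΔEcad females 8 and 4, next in Grpr after tumour 3, had Nmb at 13.4 and 12.4 TPM. Tumours 2 and 7, the lowest in Grpr, had 9.76 and 6.47 TPM. The relation of Nmb to Grpr was not tested. All 4 group ranges of Nmb overlapped, and 163 of the 793 exonic bases of Nmb overlap Sec11a on the same strand. Reads there cannot be assigned by strand, and the Nmb level is uncertain to that extent. Sec11a, which encodes a signal peptidase subunit, was at 29.5 to 80.4 TPM over the 32 tumours, and at 29.8 TPM in ΔEcad male 8.

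**Figure D1:**
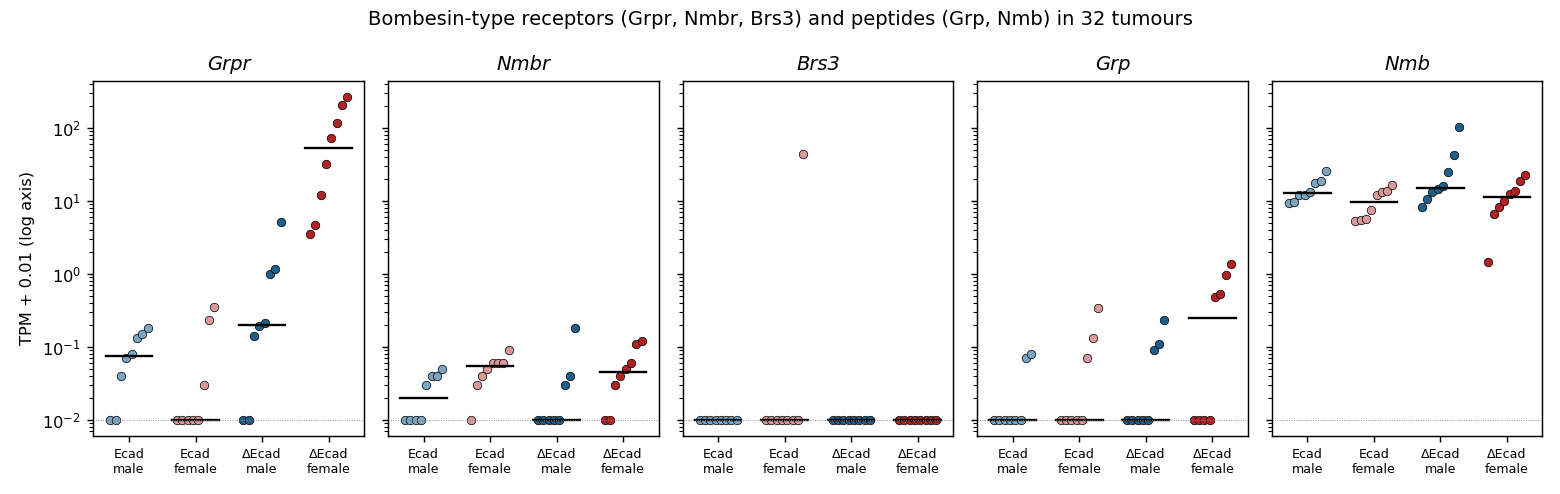
TPM + 0.01 on a log axis (vertical) for the 3 receptors and 2 peptides in the 4 groups (horizontal), 8 tumours each. Points are tumours in order of level and bars are medians. Grpr spans 3.52 to 262.9 TPM in ΔEcad females and stays at or below 0.34 TPM in Ecad tumours, Brs3 is read in 1 tumour, Grp reaches 1.34 TPM at most, and Nmb is read in all 32.

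Within a tumour the 2 ligand genes were compared directly, on the log2(TPM + 0.01) scale. Nmb exceeded Grp in 32 of 32 tumours. In males the mean difference was 9.73 ± 1.25 for Ecad and 9.60 ± 2.89 for ΔEcad tumours, and in females it was 8.37 ± 2.23 and 6.73 ± 3.44 (SD, n = 8 per group). In each group a two-sided exact sign-flip permutation test gave p = 0.00781, the smallest that 8 tumours allow in this test, and 0.00781 after adjustment over the 4 groups. The size depends on the pseudocount where Grp is at 0, while the direction does not. The smallest difference, 3.20, is from a ΔEcad female with Grp above the floor. How the difference varied between groups was not tested.

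Ligands were then set against the receptor in each tumour. Grpr exceeded 1 TPM in 10 tumours, namely all 8 ΔEcad females and ΔEcad males 4 and 7. Of these 10, Nmb was above 3 counts in 10 and Grp in 4, all 4 of them ΔEcad females. Grp above 3 counts with Grpr at or under 1 TPM occurred in 1 tumour, Ecad female 5, which had the highest Grpr of the Ecad tumours. Per length, Nmb RNA exceeded Grpr RNA in 27 of 32 tumours. The exceptions were the ΔEcad females 1, 3, 4, 5 and 8, in which the TPM of Nmb was 0.112, 0.0054, 0.106, 0.719 and 0.065 times that of Grpr. In the ΔEcad females 2, 6 and 7 it was 2.77, 1.57 and 1.39 times. Because Nmb exceeded Grp in every tumour, the highest of the 3 genes could only be Grpr or Nmb. In no ΔEcad female did Grp exceed Grpr.

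**Figure D2:**
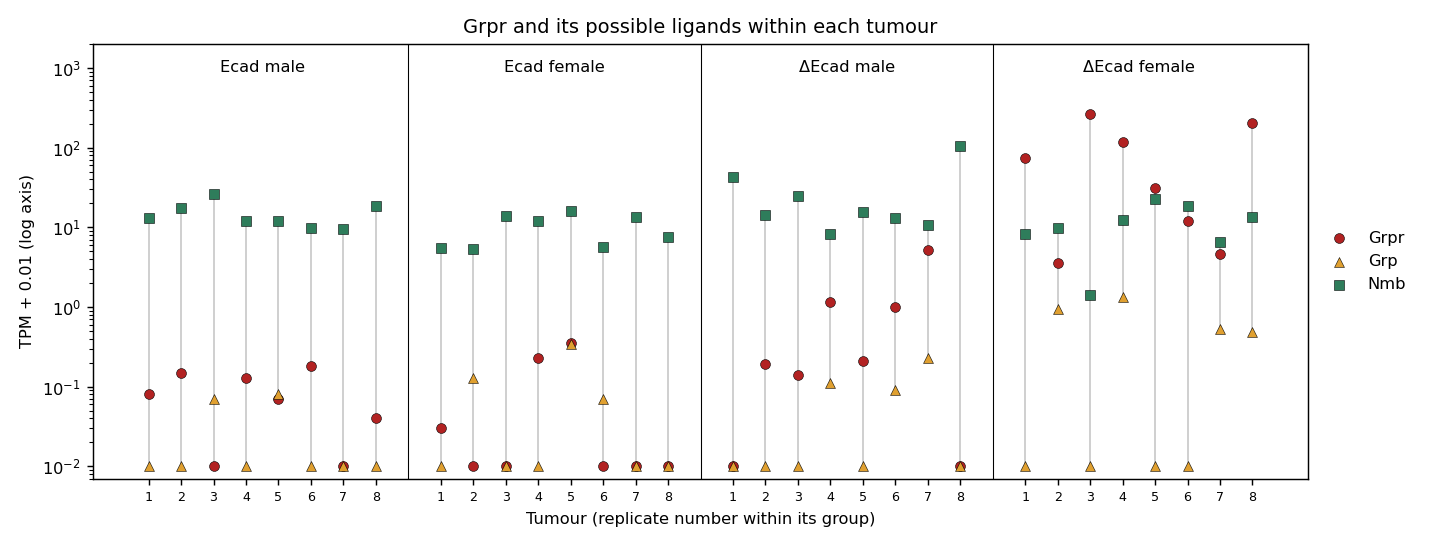
Grpr, Grp and Nmb as TPM + 0.01 on a log axis (vertical) in each of the 32 tumours (horizontal, replicate number within its group). Vertical lines join the lowest and highest of the 3 genes in a tumour. Nmb lies above Grp in all 32 tumours and above Grpr in 27, and Grpr lies on top in ΔEcad females 1, 3, 4, 5 and 8.

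The group differences of Grpr and Nmb were tested with edgeR over all 17717 genes that passed the filter, calling a gene at an adjusted p under 0.05 and a log2 fold change over 1 in size. In females ΔEcad was compared with Ecad to see what the deletion changes. Grpr rose by 10.19 on the log2 scale (SE 1.36, 95% interval 7.40 to 12.99), at an edgeR adjusted p of 0.00034, the smallest p of all genes. It was higher in all 8 tumours labelled ΔEcad female than in any Ecad female. Nmb differed by 0.21 (SE 0.55, edgeR adjusted p = 0.915), with an interval of -0.92 to 1.33. Of the 2 members tested, 1 was called, beside a background of 1.2% of all genes. Grpr passed the count filter through the ΔEcad females, where it is high, and was chosen with earlier results of these data known. This share is therefore a description and not a test. Grpr was called under every alternative fit tried in this comparison, and was at 10.23 (edgeR adjusted p = 0.00027) without the 3 libraries named above, at 9.76 (edgeR adjusted p = 0.00106) without ΔEcad female 3 and at 9.73 (edgeR adjusted p = 0.00105) without all 4.

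In males the same comparison called neither member. The background was 0%: no gene passed in edgeR, though 1814 had an unadjusted p under 0.05, while DESeq2 called 21 and the limma fits 0. Grpr differed by 3.63 (SE 1.09, edgeR adjusted p = 0.382), with 6 of 8 ΔEcad males above 3 counts against 3 of 8 Ecad males. Without ΔEcad male 7 it was 2.42, and without the 3 libraries 2.50. Nmb differed by 1.53 (SE 0.56, edgeR adjusted p = 0.427), and by 0.80 without ΔEcad male 8.

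Between the sexes, Grpr differed by 6.43 in ΔEcad tumours (female against male, SE 1.14, edgeR adjusted p = 0.0080) and Nmb by -1.82 (SE 0.57, edgeR adjusted p = 0.484), so 1 of the 2 tested members was called, beside a background of 0.0395%. The limit given for this share in females holds here too. The Grpr call was lost when only the ΔEcad tumours were fitted (6.44, edgeR adjusted p = 0.242), and without the 3 libraries named above it was 7.61 (edgeR adjusted p = 0.0076). Without ΔEcad female 3 it was 6.01 (edgeR adjusted p = 0.0285), and without all 4 it was 7.12 (edgeR adjusted p = 0.0264). Nmb was -1.06 without ΔEcad male 8. In Ecad tumours neither was called, against a background of 0.0508%. Grpr differed by -0.13 (SE 1.15, edgeR adjusted p = 0.972, interval -2.49 to 2.23) and Nmb by -0.50 (SE 0.55, edgeR adjusted p = 0.693). Grpr had 16 counts over all Ecad females and 18 over all Ecad males, too few for the missing call to say much.

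The interaction of genotype and sex called neither member, against a background of 0% (no gene passed in edgeR, though 3131 had an unadjusted p under 0.05, DESeq2 called 1225, limma voom and log2(TPM + 1) 0, and log2(TPM + 0.1) 1). For Grpr it was 6.56 (SE 1.59, edgeR adjusted p = 0.0526), just above the threshold. It passed with DESeq2 (6.62, adjusted p = 0.0017), with RLE size factors (6.63, adjusted p = 0.0490), without the filter (6.61, adjusted p = 0.0477) and with limma on log2(TPM + 0.1) (6.57, adjusted p = 0.0330). Without the 3 libraries it was 7.74 (edgeR adjusted p = 0.126), and without these and ΔEcad female 3 it was 7.24 (edgeR adjusted p = 0.0991). It passed in 9 of the 32 fits that left out 1 tumour (edgeR adjusted p from 0.0227 to 0.104), among them the one without ΔEcad female 3 (6.13, edgeR adjusted p = 0.0371). For Nmb it was -1.32 (SE 0.78, edgeR adjusted p = 0.385). The comparisons share tumours, and their values are therefore given side by side only.

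**Figure D3:**
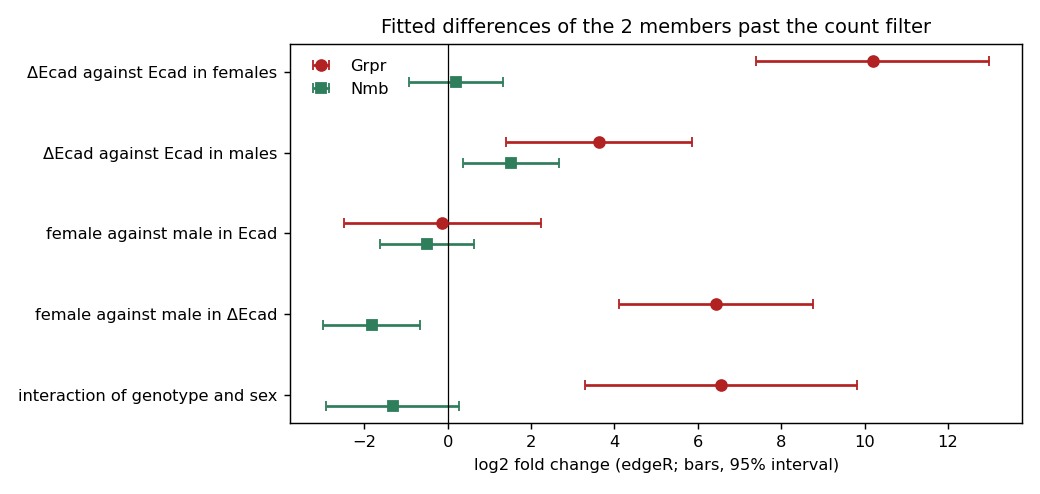
Fitted log2 fold changes of Grpr and Nmb (horizontal) in the 5 comparisons (vertical), with 95% intervals derived from the edgeR F statistics as bars. Grpr lies at 10.19 in females and 6.43 between the sexes of ΔEcad tumours, and Nmb lies between -1.82 and 1.53, with no call.

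Marker levels moved across the same tumours. The summed TPM of 7 keratinocyte markers had a median of 6124 in ΔEcad females and 1.87 in Ecad females, of 441 in ΔEcad males and of 4177 in Ecad males. Among the ΔEcad females the tumours with the highest Grpr, 3, 8 and 4, had keratinocyte sums of 3.81, 5536 and 1.67 TPM, and the 2 with the lowest, 2 and 7, had 37360 and 11210 TPM. The tumours 1, 5 and 6, between these in Grpr, had 21283, 7.33 and 6712 TPM. The part of keratinocytes in the level of Grpr was not tested. With the keratinocyte and melanocytic scores in the fit the log2 fold change of Grpr in females was 9.998 (edgeR adjusted p = 2.9e-05).

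Markers of smooth muscle, in which Grpr is known to be made, were read in every tumour. Their summed level ranged from 15.4 to 4092 TPM, and its median in females was 195.8 TPM for Ecad and 450.6 TPM for ΔEcad, and in males 323.2 and 165.6 TPM. The fibroblast sum in females had a median of 241.1 TPM for Ecad and 862.7 TPM for ΔEcad. Both lists were thus higher in the median of the group with high Grpr, and both were highest in ΔEcad female 3, the tumour with the most Grpr. Among the other ΔEcad females the tumours 8 and 4, next in Grpr, had smooth muscle sums of 270.2 and 201.2 TPM. The tumours 1, 5 and 6 followed in Grpr, with sums of 737.3, 233.9 and 202.3 TPM. The 2 with the lowest Grpr, 2 and 7, had 631 and 884.1 TPM. The part of these cells in the level of Grpr was not tested. With the smooth muscle and fibroblast scores in the fit the log2 fold change of Grpr was 10.50 in females (edgeR adjusted p = 0.000236) and 7.94 between the sexes of ΔEcad tumours (edgeR adjusted p = 0.00431), and the interaction was 7.83 (edgeR adjusted p = 1).

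Markers of neuroendocrine, sensory neuron and lung epithelial cells were lower. The sum of 7 neuroendocrine markers reached at most 11.8 TPM and that of 7 sensory neuron markers at most 13.4 TPM in 31 tumours, and stood at 115 and 339 TPM in ΔEcad male 7, the ΔEcad male with the highest Grpr and 3 counts of Grp. The sum of 5 lung epithelium markers reached at most 32.7 TPM in any tumour. The part of these cells in the results for Grpr, Grp and Nmb was not tested.

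Grpr was next placed among 15 other Gq-coupled peptide receptors. In ΔEcad females Grpr was the highest of the 16 genes in 3 tumours (1, 3 and 8), second behind Ednrb in tumour 4 and between the third and the fifth in the others. Its median there was 52.3 TPM, beside 35.8 TPM for Ednrb, the endothelin B receptor that melanocytes carry, and 20.4 TPM for Agtr1a, the angiotensin II receptor. In Ecad females the medians were 0 TPM for Grpr, 66.3 for Ednrb and 30.6 for Agtr1a. Of the 15, 9 were tested and 0 were called in any of the 5 comparisons, where the background was at most 1.2% of all genes. In females 6 of 9 had a positive difference, with a median log2 fold change of 1.07 beside -0.018 over all genes. The smallest p in females was that of Avpr1a, a vasopressin receptor, at 2.35 (SE 0.80, edgeR adjusted p = 0.109), and in males that of Oxtr, the oxytocin receptor, at -1.51 (SE 0.80, edgeR adjusted p = 0.508).

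**Figure D4:**
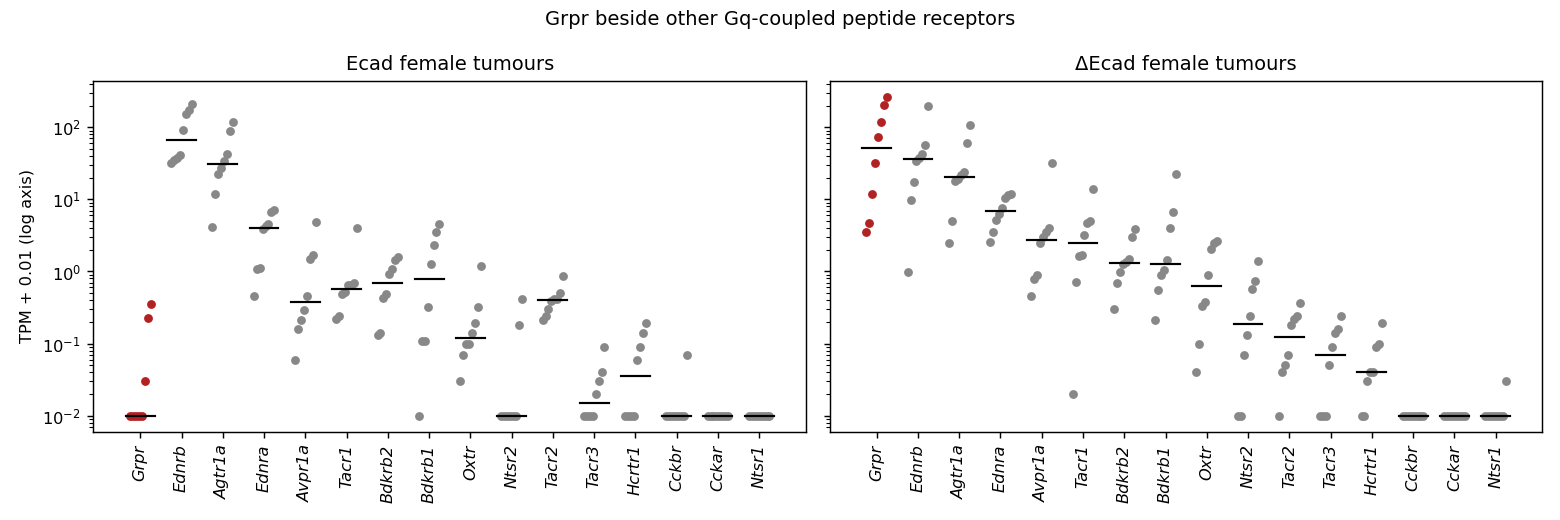
TPM + 0.01 on a log axis (vertical) of Grpr (red) and 15 other Gq-coupled peptide receptors (grey, horizontal, ordered by their median in ΔEcad females) in the 8 Ecad and the 8 ΔEcad female tumours. Points are tumours and bars are medians, and Grpr moves from a median of 0 TPM to 52.3 TPM while Ednrb stands at 66.3 and 35.8 TPM.

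Peptides become active only after processing, and extracellular peptidases end their action. Of 8 processing genes, 5 were tested and 0 were called in any comparison, where the background was at most 1.2% of all genes. Cpe, the carboxypeptidase that trims basic residues, had the smallest p in both sexes, at -1.08 in females (SE 0.58, edgeR adjusted p = 0.391) and 1.18 in males (SE 0.58, edgeR adjusted p = 0.491). Of the 5 peptidase genes, all tested, 1 was called higher in ΔEcad females, beside a background of 1.2% of all genes, and 0 in the other comparisons. This share is a description and not a test. All 5 had a positive difference in females, with a median of 1.33 beside -0.018 over all genes. Between the sexes (female against male) their median was -1.54 in Ecad and 0.02 in ΔEcad tumours, beside 0.048 and -0.057 over all genes. In the median the list thus stood lower in Ecad females than in Ecad males, with little difference between the ΔEcad sexes. The gene called was Ece1, endothelin-converting enzyme 1, whose level ran from 5.27 to 32.8 TPM in Ecad females and from 17.2 to 129 TPM in ΔEcad females. Its median in females was 15.3 TPM for Ecad and 56.8 TPM for ΔEcad, and in males 49.2 and 26.7 TPM, so the level in ΔEcad females was not particular to them. In females Ece1 rose by 1.75 on the log2 scale (SE 0.46), at an edgeR adjusted p of 0.0497, with overlapping ranges. The call was at the threshold: it was lost in 10 of 14 other fits and in 19 of the 32 fits that left out a tumour, and with the keratinocyte and melanocytic scores in the fit the difference was 1.05 (edgeR adjusted p = 0.417). In males the smallest p among the peptidases was that of Ece2, at 0.59 (SE 0.34, edgeR adjusted p = 0.541).

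Below the receptor, none of 8 G protein and phospholipase genes, 8 calcium and protein kinase C genes, 8 desensitisation genes and 9 immediate early genes and YAP1 targets was called in any comparison, and all were tested. The background was at most 1.2% of all genes in any comparison. The median log2 fold changes of these lists in females were 0.21, 0.19, 0.06 and -0.29, beside -0.018 over all genes. Gna15, a Gq-class alpha subunit, had the smallest p of the first list in females at 2.16 (SE 0.77, edgeR adjusted p = 0.131) and in males at -0.81 (SE 0.75, edgeR adjusted p = 0.707). Prkca led the next list in females at 0.67 (SE 0.45, edgeR adjusted p = 0.529) and Prkcb in males at 1.45 (SE 0.79, edgeR adjusted p = 0.520), both protein kinase C genes. Rgs4, which shortens G protein signals, was at 1.34 in females (SE 0.50, edgeR adjusted p = 0.154), and Grk5, a receptor kinase, at 0.49 in males (SE 0.20, edgeR adjusted p = 0.434). Egr1, an immediate early gene, was at -1.95 in females (SE 0.71, edgeR adjusted p = 0.140), and Tead4, a partner of YAP1, at -0.88 in males (SE 0.43, edgeR adjusted p = 0.484).

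Among 12 other neuropeptide genes, 8 were tested and 1 was called, Calcb in females, beside a background of 1.2% of all genes. This share too is a description and not a test. Calcb encodes beta calcitonin gene-related peptide. It stood at 56.7 TPM in ΔEcad female 8, at 1.95 to 6.63 TPM in ΔEcad females 1, 2, 6 and 7, and at 0 to 0.06 TPM in ΔEcad females 3, 4 and 5, and the 8 Ecad females reached 0.11 TPM at most, so the groups overlapped. In males its level ran from 0 to 9.01 TPM for Ecad and from 0 to 1.77 TPM for ΔEcad. In females Calcb rose by 7.45 on the log2 scale (SE 1.64), at an edgeR adjusted p of 0.0394. The call was lost in 7 of 13 other fits and in 10 of 32 that left out a tumour, and with the keratinocyte and melanocytic scores in the fit the difference was 2.92 (edgeR adjusted p = 0.650). The 5 ΔEcad females with Calcb over 1 TPM had keratinocyte sums of 5536 TPM or more, and the other 3 had 1.67 to 7.33 TPM. The part of keratinocytes in this was not tested. In males the smallest p was that of Penk, proenkephalin, at 5.00 (SE 1.42, edgeR adjusted p = 0.365), with 2642 TPM in ΔEcad male 7 against at most 30.9 TPM in the other ΔEcad males.

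The chromosomal neighbours of Grpr were examined in the same way. Of 13 annotated genes within 500 kb, 5 passed the filter. Against a background of 1.2% in females and 0% in males, 0 of these 5 were called in either sex. Their log2 fold changes in females lay between -0.61 and 1.86, against 10.19 for Grpr, and the smallest edgeR adjusted p was 0.264. The largest was that of Rnf138rt1, a retrotransposed gene with its start 212 kb away, at 1.86 in females (SE 1.09, edgeR adjusted p = 0.447) and 3.55 in males (SE 1.26, edgeR adjusted p = 0.421). It reached 12.3 TPM in ΔEcad females, where its median was 0.19 TPM. The others were Ctps2 at -0.50 (SE 0.24), Ap1s2 at 0.40 (SE 0.62), Zrsr2 at -0.61 (SE 0.27) and Car5b at 0.30 (SE 0.51) in females.

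**Figure D5:**
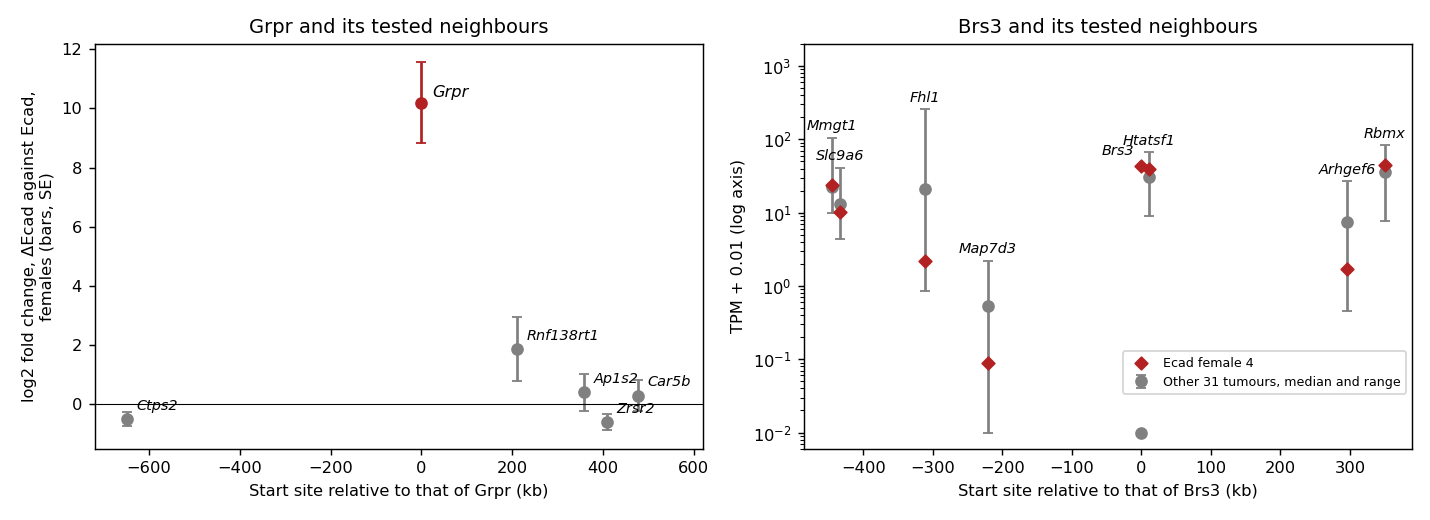
Left, log2 fold change of ΔEcad against Ecad in females with SE bars (vertical) for Grpr (red) and its 5 tested neighbours (grey) by distance of their start sites from that of Grpr in kb (horizontal). Right, TPM + 0.01 on a log axis for Brs3 and its 7 tested neighbours by distance from the start of Brs3, with Ecad female 4 as red diamonds and the median and range of the other 31 tumours in grey. Grpr stands at 10.19 beside -0.61 to 1.86, and Brs3 at 43.2 TPM beside 0 in the other tumours while each neighbour in Ecad female 4 falls within the grey range.

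The genes most like Grpr and Nmb were ranked by Spearman correlation of log2 CPM over the 32 tumours, as a description in which group, depth and tissue content are shared. For Grpr they were Ston2 (rho 0.71), Tnfrsf10b (0.69), Mfap5 (0.69), Rars2 (0.67) and Ass1 (0.66). After group means were subtracted they were Sde2 (0.77), Htr2a (0.76), Lpin2 (0.75), AV039307 (0.74) and Rbms1 (0.73), so none of the first 5 recurred. For Nmb they were Mir7666 (0.72), Gpx4 (0.70), Iah1 (0.68), Nts (0.68) and Gpx4-ps2 (0.66), and after subtraction Gm26881 (0.76), Gm13594 (0.74), Hint2 (0.73), Becn1 (0.73) and Kcnmb4 (0.73). Nts, the gene of neurotensin, was the 1 gene of these on the list of other neuropeptides, and its own differences were 0.02 in females (SE 0.81, edgeR adjusted p = 0.994) and 1.60 in males (SE 0.83, edgeR adjusted p = 0.501). The pseudogene Gpx4-ps2 shares sequence with Gpx4, so their reads may be split between them.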

How the data were processed

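RNA of 32 tumours, 8 per genotype and sex, was sequenced after polyA selection with stranded libraries. The authors aligned reads with STAR to GRCm38 and deposited whole-number counts per gene. They also deposited TPM, which within 0.0685% was the count divided by 1 length per gene and rescaled in each tumour. Whether these tumours were batch corrected and whether counting used strand are not given in the sources used here. The values per tumour and group were taken from these tables, with groups from the sample labels. GENCODE M21 (GRCm38) gave a symbol to 50376 of the 50600 gene identifiers and none to 224, and gave the coordinates. Sequences came from RefSeq, which matched Grpr, Nmb, Nmbr and Brs3.

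Counts were tested with the quasi-likelihood F-test of edgeR 4.0.16 (TMM factors, filterByExpr by group, robust dispersions) in 1 model of 32 tumours, with 5 contrasts and Benjamini-Hochberg adjustment over 17717 genes. The p-values measure the spread between tumours, and the labels do not say that each came from a separate mouse. Nmb and Grp were compared within tumours by an exact sign-flip test. Alternatives were DESeq2 1.42.0, limma 3.58.1, other size factors, filters, pseudocounts and samples, a replicate block, marker scores as covariates, and each tumour left out. The fits with smooth muscle and fibroblast scores, those without ΔEcad female 3 and the 3 doubted libraries together, and all alternatives for Ece1 and Calcb were chosen after seeing the data. Members and lists were chosen with earlier results of these data known. Named were the 5 members, the genes of 8 pathway lists (73 genes) that were called or had the smallest p in the genotype comparisons, tested neighbours of Grpr, and the 5 genes most like Grpr and Nmb by each measure. Markers came from 18 lists, of which those with a value beside a member are reported. Fits ran in R 4.3.3, and tables and plots were made in Python 3.11.15 with pandas 2.3.3, numpy 2.4.6 and matplotlib 3.10.9.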

Additional observations from a re-analysis of the deposited data

Results flagged for a closer look

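Within groups of 8 tumours, 13 sets of levels with at least 1 tumour above 3 counts were searched for a tumour whose gap to its nearest neighbour took up more of the range than Dixon's 95% critical value allows. Chance passes that value in about 1 of 20 sets of normally distributed levels. TPM are skewed and often 0, so that rate does not hold here and the number passed cannot show an excess. The critical value was passed in 5 sets. Brs3 in Ecad female 4 was at 43.2 TPM where the other 7 tumours were at 0. Grpr in ΔEcad male 7 was at 5.14 TPM, with 1.16 TPM next. Nmb in ΔEcad male 8 was at 103.5 TPM, with 43.0 TPM next. Grp in Ecad female 5 was at 0.33 TPM and Nmbr in ΔEcad male 4 at 0.17 TPM, which are 4 and 5 counts. No cause was tested for any of these.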

How the results depend on the processing

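Of 456 values of Grpr and Nmb under another setting, 431 kept their direction and side of the threshold. This total holds Nmb, which was never called, and fits that left out a tumour outside the groups compared. Such values could hardly change their side of the threshold, so the total is no measure of stability. The Grpr call in females held in all fits (5.18 to 10.56, and 9.76 to 11.35 with 1 tumour left out). The Grpr call between ΔEcad sexes was lost with only the tumours compared (6.44) and with the replicate block (7.11). The tumour numbers did not pair the samples (mean correlation of deviations -0.000581 over 48 pairs), and with the block 1 gene was called in females. The Grpr interaction passed with DESeq2 (6.62), RLE size factors (6.63), no filter (6.61) and log2(TPM + 0.1) (6.57), and in 9 of 32 fits with 1 tumour left out (6.13 to 7.78 over all 32). Grpr between Ecad sexes ranged from -1.28 to 0.13 with 1 tumour left out (0.11 with smooth muscle and fibroblast scores) and Nmb in females from -0.067 to 0.38 (0.03 to 0.72 under the other settings), both changing sign. Nmb in males, never called, ranged from 0.80 to 1.69 with 1 tumour left out and from 0.52 to 1.81 under the other settings. Nmb minus Grp stayed positive throughout (2.99 to 10.2).

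Genes called in females numbered 1281 with DESeq2, 322 with RLE, 555 without the filter, 87 at a CPM of at least 1 in 8 tumours, 1 each with limma voom, log2(TPM + 1), log2(TPM + 0.1), only the tumours compared and smooth muscle and fibroblast scores, 7 with keratinocyte and melanocytic scores (1 higher), 3 without 3 libraries and 112 without 4, and 1 to 695 with 1 tumour left out. DESeq2 called 21 in males, 1023 between Ecad sexes (voom 92, 8 to 21 with 1 tumour left out), 24 between ΔEcad sexes (0 with only the tumours compared) and 1225 for the interaction (RLE 201, no filter 284, log2(TPM + 0.1) 1, keratinocyte and melanocytic scores 2, 0 to 848 with 1 tumour left out). The cause was not tested. Depth limits Grp, Nmbr and Ecad levels of Grpr, which lay at few counts.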
